A study of Mus musculus with 30 samples.

Results

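Coagulation, fibrinolysis and complement depend on proteins that hepatocytes make and release into plasma, and 39 genes of these systems were followed in the liver of obese, diabetic db/db mice. They were taken by name as genes for such proteins (18 of coagulation, 4 of fibrinolysis and 17 of complement). Of the 39 genes, 35 had a probe detected on at least 15 of the 30 arrays, out of 7905 detected genes among the 16593 named genes on the array. The brightest probe of each of the 35 was detected on all 30 arrays, in both groups. The probe of Fgb, which codes for the beta chain of fibrinogen, and that of C1ra, a protease of the classical complement pathway, were detected on 0 arrays. Cpb2, an inhibitor of fibrinolysis, and C3, the central complement protein, were matched by no probe and were not analysed here. Protein Z was listed under an older symbol and was matched as Proz.

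Livers came from mice of the strain BKS.Cg-m+/+Leprdb/J with the db/db genotype, males 6 to 8 weeks old when housed for the study. All of them lack a working leptin receptor, so the control group was itself obese and diabetic, and no lean liver was compared. For 6 weeks, 15 mice ate chow (Ctrl) and 15 ate chow with sebacic acid, a dicarboxylic fatty acid of medium chain length, at 77.6 g/kg food, which supplied 15% of energy (SA15%). Each array (Illumina MouseRef-8) held the RNA of 1 liver, which gives 15 mice per group, and precision is limited by this number of arrays. Levels are given as log2 of the quantile normalized signal, and differences as SA15% minus Ctrl on that scale, where a difference of 1 is a doubling. Differences were tested with limma, with Benjamini-Hochberg adjustment over all 11329 detected probes (36.6% of which passed an adjusted p of 0.05).

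In coagulation, serine proteases made as inactive precursors activate each other in turn until thrombin (F2) cuts fibrinogen (Fga, Fgb, Fgg) into fibrin, and antithrombin and the protein C system hold the reaction in check. Plasmin, made from plasminogen, dissolves fibrin. Complement is started by the classical, lectin or alternative pathway, and these meet at C3 and end in the terminal components, which assemble into a pore in the target membrane. Hepatocytes are the main source of nearly all of these proteins, and many of the genes lie next to a relative from which they arose by duplication.

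Of the 5 listed and detected genes of the terminal complex, 4 fell (80%, against 19.5% of all detected genes). Among these 4, C6, C8b and C9 had the largest decreases of the 15 detected complement genes on the list. Regions before the transcription start were taken for the 5 genes that fell at least 1.3-fold at an unadjusted p under 0.001. These were C6, C8b, C9, Hrg and Serpinc1, and the region of Serpinc1 is not printed. Of those printed, C6 and C9 lie on the same chromosome and C8b next to another member, C8a. The region of Hrg, the plasma protein with the largest decrease in the fibrinolysis group, is shown beside theirs. The sequences are the 250 bases that precede the first start listed by RefSeq (assembly GRCm38.p6, plus strand, 5′ to 3′). They are C6 at chr15:4726960-4727209, C8b at chr4:104766067-104766316, C9 at chr15:6445096-6445345 and Hrg at chr16:22950822-22951071. Capitals mark matches to the motifs searched on both strands, GTTAAT (bound by HNF1), CAAAGTCCA (bound by HNF4) and TTGCNNAA (bound by C/EBP factors), 3 classes of regulators of liver genes.
C6: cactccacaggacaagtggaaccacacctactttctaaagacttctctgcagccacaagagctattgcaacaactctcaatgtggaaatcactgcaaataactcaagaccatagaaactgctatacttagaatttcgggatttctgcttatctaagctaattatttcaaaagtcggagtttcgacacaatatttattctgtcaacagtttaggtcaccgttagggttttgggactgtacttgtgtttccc
C8b: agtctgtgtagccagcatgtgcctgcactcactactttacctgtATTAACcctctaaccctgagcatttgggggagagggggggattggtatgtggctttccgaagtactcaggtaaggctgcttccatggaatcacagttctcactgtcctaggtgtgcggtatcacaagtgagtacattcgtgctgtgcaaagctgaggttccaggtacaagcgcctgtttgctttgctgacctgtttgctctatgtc
C9: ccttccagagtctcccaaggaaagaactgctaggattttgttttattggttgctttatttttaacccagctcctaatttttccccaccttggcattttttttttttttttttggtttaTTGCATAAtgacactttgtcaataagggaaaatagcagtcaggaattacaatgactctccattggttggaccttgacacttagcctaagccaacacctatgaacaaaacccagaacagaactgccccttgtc
Hrg: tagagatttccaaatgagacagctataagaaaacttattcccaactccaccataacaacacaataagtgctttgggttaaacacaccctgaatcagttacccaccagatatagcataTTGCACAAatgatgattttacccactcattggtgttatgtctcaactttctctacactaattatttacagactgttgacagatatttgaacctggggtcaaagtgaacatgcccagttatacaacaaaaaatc

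C8b held ATTAAC, the reverse complement of GTTAAT, 206 bases before the start. C9 held TTGCATAA 132 bases and Hrg TTGCACAA 133 bases before it, while the windows of C6 and Serpinc1 held no match to any of the motifs. Such a match is a description and shows no binding. Of the 35 detected genes, 27 had a listed start. GTTAAT or its complement stood in 6 of these 27 windows, against 6.52% of all 27025 windows of the same length. For TTGCNNAA it was 7 of 27 against 9.55%, and for CAAAGTCCA 0 of 27 against 0.381%. The genes with TTGCNNAA were F9, F11, Klkb1, Fga, Hrg, C1s1 and C9. They included 5 of the 14 genes that fell and had a listed start and 2 of the 13 others.

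Across the 35 genes, 17 fell, 3 rose (Pros1, C4b and C1s1) and 15 did not pass an adjusted p of 0.05. This share of 57.1% stands beside 37.5% of all 7905 detected genes, where 19.5% were lower and 18% higher. Of the 346 detected genes above log2 12, 46.5% passed, and 24.3% of the 346 were lower. Most of the 35 genes, among them C6 (mean 8.30) and C9 (11.69), lay below that level. Of the detected probes between log2 8 and 12, 43.4% passed. The median difference of the 35 genes was -0.14, against -0.01 over all detected genes, and 29 of the 35 lay below zero. Taken liver by liver, the median of the genes' deviations from their Ctrl means ran from -0.14 to 0.21 in Ctrl and from -0.29 to 0.01 in SA15%, so the groups overlapped. Scaling arrays by their median alone, without quantile normalization, gave 27 genes lower and 2 higher. The higher calls made up 46.9% of all called probes with quantile normalization (1942 higher, 2199 lower) and 20.1% with median scaling (769 higher, 3066 lower). In RNA of whole liver, fewer cells of a type and less RNA per cell cannot be told apart.

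**Figure D1:**
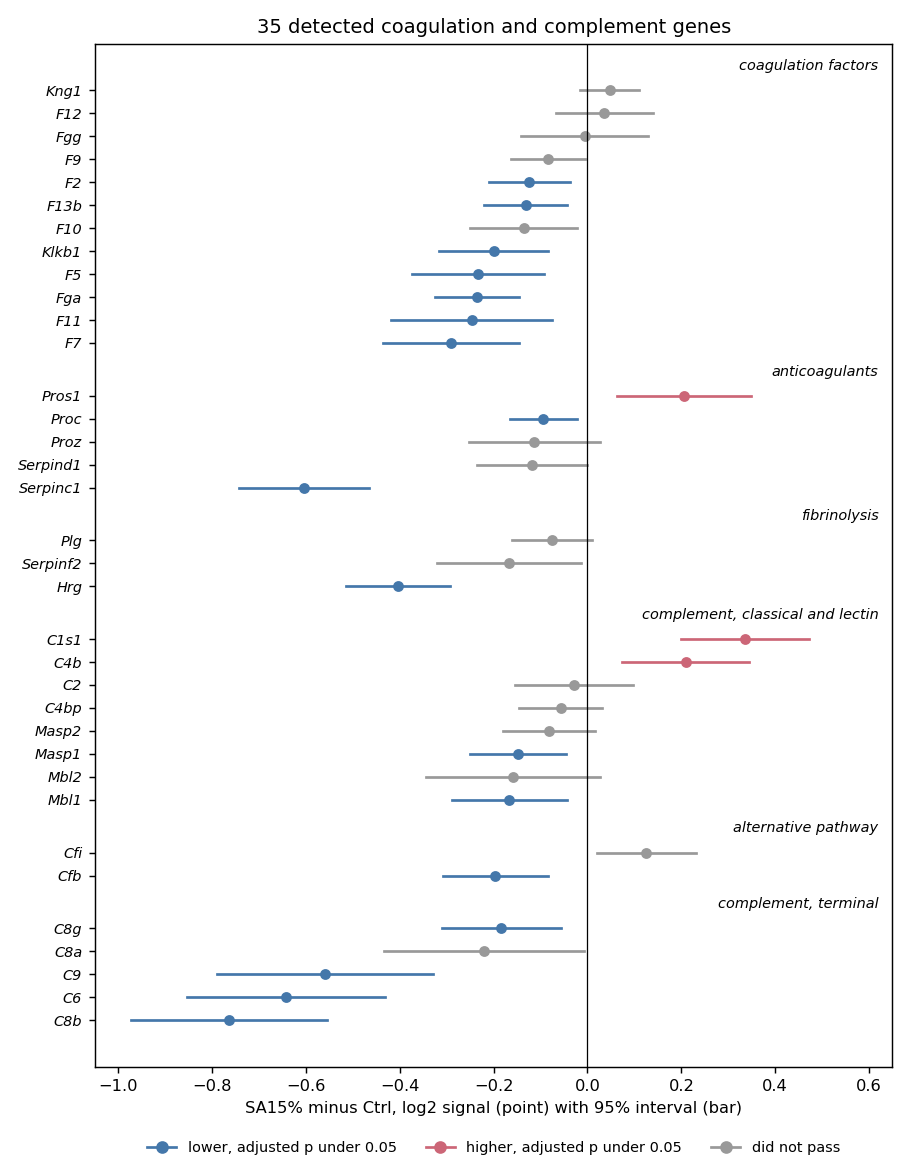
Difference SA15% minus Ctrl in log2 signal (x axis) for the 35 detected genes, grouped by role, with points for the estimate and bars for its 95% interval (15 livers per group). The 17 genes that fell, in blue, extend to -0.76 for C8b, the 3 that rose, in red, reach at most 0.34 for C1s1, and the 15 in grey did not pass.

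A decrease of at least 1.2-fold, passing the adjusted test, was found for 6 of the 35 genes (F7, Serpinc1, Hrg, C6, C8b and C9), against 4.95% of detected genes. An increase of that size was found for C1s1 alone among the 35, against 5.55% of detected genes. At an unadjusted p under 0.001 with a change of at least 1.3-fold, the thresholds for array data in the methods, 5 fell (C6, C8b, C9, Hrg and Serpinc1) and 0 rose, where 4.28% of the 7905 detected genes and 2.09% of all 16593 genes passed in either direction. At the brightest probe, the groups overlapped in all 35 genes, while they stayed apart in 0.253% of detected genes with SA15% lower and 0.316% with SA15% higher.

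The terminal complement genes on the list had the lowest median of the groups, -0.56 over 5 genes. C8b codes for the beta chain of C8, the component that first inserts into the membrane. Its level was 9.55 in the lowest Ctrl liver, 10.09 at the median and 10.76 in the highest, against 8.73, 9.40 and 9.82 in SA15%. Every SA15% liver lay below the Ctrl median, 10 of the 15 below the lowest Ctrl liver, and 14 of the 15 Ctrl livers above the highest SA15% liver. The difference was -0.76 (SE 0.10, adjusted p = 7.5e-07), a fold of 0.589 with a 99.9% interval from 0.456 to 0.761. By size, it was the 17th largest decrease among the detected genes.

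C6, which binds the activated C5 fragment and begins the assembly, ran from 7.95 through a median of 8.65 to 9.25 in Ctrl and from 7.56 through 7.96 to 8.34 in SA15%. All 15 SA15% livers were below the Ctrl median, and 11 Ctrl livers exceeded every SA15% liver. The difference of -0.64 (SE 0.10, adjusted p = 1.3e-05) amounted to a fold of 0.64 (99.9% interval 0.494 to 0.83), and a dimmer probe of the gene gave -0.50. C9 codes for the protein that polymerizes to line the pore. Its levels were 11.51, 11.93 and 12.51 (lowest, median, highest) in Ctrl and 10.56, 11.40 and 12.02 in SA15%, where 14 of 15 livers were below the Ctrl median and 9 below its lowest value. It fell by 0.56 (SE 0.11, adjusted p = 2.5e-04, fold 0.679, 99.9% interval 0.512 to 0.901), and another detected probe gave -0.60. The third C9 probe was detected on 14 arrays only and was left out.

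The C8 protein joins 3 chains, and their genes did not move by the same amount. C8g, a lipocalin that is bound to the alpha chain, was a bright gene (mean 13.41 ± 0.19 SD in Ctrl and 13.23 ± 0.16 in SA15%, n = 15 each) and fell by 0.18 (SE 0.06, adjusted p = 0.020). C8a, the alpha chain, measured 9.54 ± 0.31 in Ctrl and 9.32 ± 0.30 in SA15% (n = 15 each), a difference of -0.22 (SE 0.10) that did not pass (adjusted p = 0.097), though it did with median scaling (0.031) and with pooled error (1.5e-04), where a probe's variance is replaced by that of probes of like brightness. C8a and C8b are neighbours on chromosome 4 with no gene between them, and the decrease was larger in C8b by 0.54 (SE 0.10). This was tested by permuting livers between groups (two-sided, 100000 resamples, p = 2e-05, and 1.2e-04 after adjustment over 6 pairs of neighbours).

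**Figure D2:**
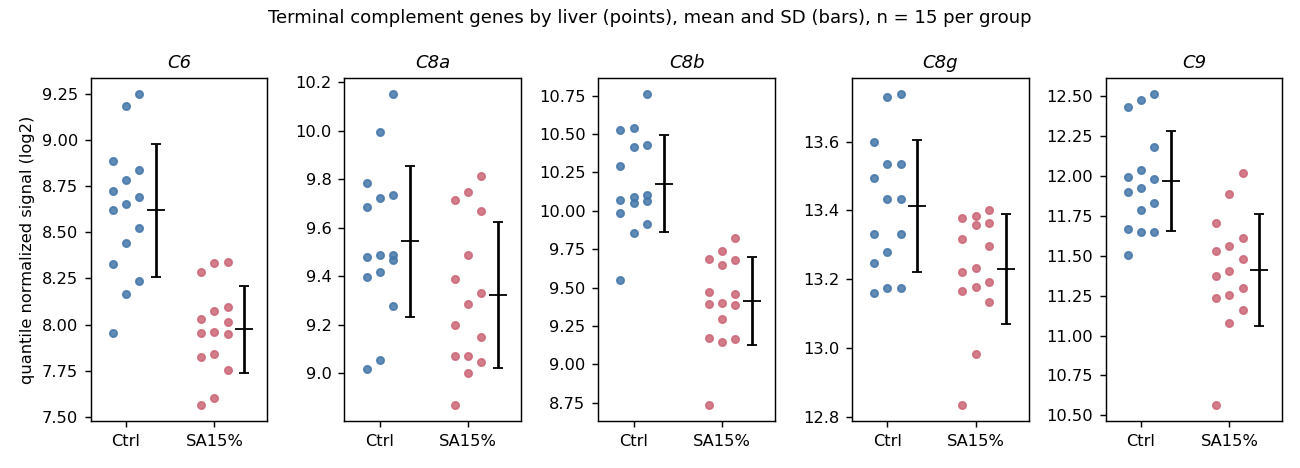
Quantile normalized log2 signal (y axis, scaled separately per panel) of the 5 terminal complement genes in each liver (points), with the mean and SD (bars) of 15 Ctrl and 15 SA15% livers. C8b, C6 and C9 show the widest shifts, with differences of -0.76, -0.64 and -0.56, and in every panel the groups overlap.

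The 8 detected genes of the classical and lectin pathways went both ways, with a median of -0.07. Here 2 rose and 2 fell (25% each), where 18% of all detected genes were higher and 19.5% lower. C1s1, the protease of C1 that cleaves C4 and C2, rose. Its levels ran from 6.72 through 7.20 to 7.58 in Ctrl and from 7.17 through 7.57 to 7.87 in SA15%, so that 14 of 15 SA15% livers were above the Ctrl median and 7 above its highest value. The difference was 0.34 (SE 0.07, adjusted p = 2.1e-04, fold 1.26, 99.9% interval 1.07 to 1.49), and a second probe of similar brightness gave 0.37. C4b, the next component of that pathway and the source of the classical C3 convertase, rose from 11.88 ± 0.20 to 12.09 ± 0.18 (SD, n = 15 each), a difference of 0.21 (SE 0.07, adjusted p = 0.013) that did not pass with median scaling (0.08, adjusted p = 0.476). C2, the protease of that convertase, differed by -0.03 (95% interval -0.15 to 0.10, adjusted p = 0.75), and C4bp, which binds C4b and limits the convertase, by -0.06 (adjusted p = 0.31). Mice carry close copies of C1s1 (C1s2) and C4b (C4a), and binding of their RNA to these probes was not tested.

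Among the recognition lectins and their proteases, Masp1, which activates the lectin pathway, fell by 0.15 (SE 0.05, adjusted p = 0.022), with all 15 SA15% livers below the Ctrl median. Mbl1, a mannose-binding lectin, fell by 0.17 (SE 0.06, adjusted p = 0.029), a call that was lost without Ctrl replicate 7 (adjusted p = 0.0543) or Ctrl replicate 10 (0.0524). Mbl2, the other mannose-binding lectin, measured 10.69 ± 0.34 in Ctrl and 10.53 ± 0.16 in SA15% (SD, n = 15 each), a difference of -0.16 (SE 0.09, adjusted p = 0.17). Masp2, which cleaves C4 and C2 in this pathway, differed by -0.08 (adjusted p = 0.18).

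In the alternative pathway, Cfb, which supplies the protease of the alternative C3 convertase, fell from 10.79 ± 0.15 to 10.59 ± 0.16 (SD, n = 15 each), a difference of -0.20 (SE 0.05, adjusted p = 0.0054), with 14 of 15 SA15% livers below the Ctrl median. It is the neighbour and a paralog of C2 on chromosome 17, and its difference lay lower than that of C2 by 0.17 (SE 0.06, adjusted permutation p = 0.021 over the 6 pairs). Cfi, the protease that inactivates C3b and C4b, was at 12.50 ± 0.17 in Ctrl and 12.63 ± 0.12 in SA15%, and its difference of 0.13 (SE 0.05) missed the threshold (adjusted p = 0.056). Of the whole complement arm, 7 of 15 detected genes fell and 2 rose (60%, against 37.5% of all detected genes), with a median of -0.16.

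In the coagulation arm, 9 of 17 detected genes fell and 1 rose (58.8%, against 37.5% of all detected genes), with a median of -0.12. Serpinc1 codes for antithrombin, the plasma inhibitor of thrombin and factor Xa, and fell the most. Its levels were 9.15, 9.45 and 9.77 in Ctrl (lowest, median, highest) and 8.59, 8.71 and 9.21 in SA15%. Of the SA15% livers, 14 of 15 were below the lowest Ctrl liver, and the remaining liver overlapped the Ctrl range. The difference was -0.60 (SE 0.07, adjusted p = 4.6e-08, fold 0.658, 99.9% interval 0.555 to 0.781). A dimmer probe of the gene (mean 8.56 against 9.13) gave -0.20, and the difference of 0.40 between the probes passed a permutation test (p = 2e-05, adjusted p = 1.3e-04 over 19 probe pairs), so the size of the decrease depends on the probe.

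Of the other anticoagulants, Proc, which codes for protein C, was lower by a small amount, with a difference of -0.09 (SE 0.04, adjusted p = 0.034) that did not pass with neqc background correction (0.054), pooled error (0.106) or the mean over its probes (0.309). Its second probe gave -0.0023 (adjusted p = 0.98), and the call was also lost when any of 8 livers was left out (Ctrl replicates 2, 7, 8 and 13, SA15% replicates 3, 6, 7 and 15, adjusted p from 0.0523 to 0.0620). Pros1, the cofactor of protein C, rose from 9.20 ± 0.23 to 9.41 ± 0.16 (SD, n = 15 each), a difference of 0.21 (SE 0.07, adjusted p = 0.021), with 14 of 15 SA15% livers above the Ctrl median. With median scaling its difference was 0.09 and did not pass (adjusted p = 0.437). Serpind1 (heparin cofactor II, a thrombin inhibitor) differed by -0.12 (adjusted p = 0.11) and Proz (protein Z, a cofactor in the inhibition of factor Xa) by -0.11 (adjusted p = 0.20).

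Of the 12 detected coagulation factors, 7 fell, 0 rose and 5 did not pass, where 19.5% of all detected genes fell. F7, the protease that starts coagulation together with tissue factor, ran from 9.29 through 9.65 to 9.87 in Ctrl and from 8.94 through 9.40 to 9.61 in SA15%. All 15 SA15% livers were below the Ctrl median and 6 below its lowest value. The difference was -0.29 (SE 0.07, adjusted p = 0.0017, fold 0.818, 99.9% interval 0.684 to 0.976). The decreases of the other 6 factors were smaller, from 0.12 for F2 (prothrombin, adjusted p = 0.021) to 0.25 for F11 (the intrinsic protease that activates factor IX, adjusted p = 0.022, or 0.075 with the mean over its probes). Between them lay F13b, the carrier subunit of the enzyme that crosslinks fibrin (-0.13, adjusted p = 0.017), and Klkb1, plasma prekallikrein of the contact system (-0.20, adjusted p = 0.0065). F5, the cofactor of factor Xa, fell by 0.23 (adjusted p = 0.0084).

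F9 and F10, 2 vitamin K dependent proteases, differed by -0.08 (adjusted p = 0.088) and -0.14 (adjusted p = 0.054) and did not pass, although all 15 SA15% livers for F9 and 14 of 15 for F10 were below the Ctrl median. F12, which starts the contact pathway, differed by 0.04 at its brightest probe (95% interval -0.07 to 0.14, adjusted p = 0.61). An F12 probe with a mean of 10.97 gave -0.15 and passed (adjusted p = 0.018), and one at 9.46 gave 0.04 (0.73). F7, F10 and Proz follow each other on chromosome 8 without a gene between neighbours. There the decrease was larger in F7 than in F10 by 0.15 (SE 0.06, adjusted permutation p = 0.019), while F10 and Proz differed by 0.02 (SE 0.05, adjusted p = 0.65) and F11 and its paralog and neighbour Klkb1 by 0.05 (SE 0.09, adjusted permutation p = 0.65).

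The fibrinogen chains are joined in 1 protein, yet their probes gave different values. Fga, the alpha chain, ran from 14.60 through 14.79 to 14.88 in Ctrl and from 14.27 through 14.49 to 14.75 in SA15%. All 15 SA15% livers were below the Ctrl median and 9 below the lowest Ctrl liver. It fell by 0.24 (SE 0.04, adjusted p = 9.6e-05, fold 0.849), with -0.26 at its other probe. With median scaling the decrease at the brightest probe was smaller (-0.16, adjusted p = 0.042). Fgg, the gamma chain, was at 12.48 ± 0.16 in Ctrl and 12.47 ± 0.22 in SA15% (SD, n = 15 each), a difference of -0.01 with a 95% interval from -0.14 to 0.13 (adjusted p = 0.95). The change of Fga was lower than that of its neighbour Fgg by 0.23 (SE 0.07, adjusted permutation p = 0.0083).

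At the brightest probe, 1 of 3 detected genes of the fibrinolysis group fell, where 19.5% of all detected genes fell. Hrg codes for histidine-rich glycoprotein, a plasma protein that binds plasminogen, heparin and fibrinogen. Its levels ran from 9.79 through 9.98 to 10.23 in Ctrl and from 9.36 through 9.60 to 9.94 in SA15%, and 14 of 15 SA15% livers were below the lowest Ctrl liver. It fell by 0.40 (SE 0.05, adjusted p = 7.5e-07, fold 0.756, 99.9% interval 0.66 to 0.865), and by 0.51 (SE 0.05, adjusted p = 2.2e-09) at a second probe. At that probe, chosen for mention after its values were seen, the groups did not overlap, with the lowest Ctrl liver at 8.654 and the highest SA15% liver at 8.651. Plg, which codes for plasminogen, differed by -0.08 at its brightest probe (adjusted p = 0.16). Plg probes with means of 11.22 and 9.38 gave -0.05 (adjusted p = 0.61) and -0.30 (9.8e-04). Serpinf2, the plasmin inhibitor antiplasmin, differed by -0.17 at its brightest probe (SE 0.08, adjusted p = 0.081). That probe passed when Ctrl replicate 14 (adjusted p = 0.0266) or SA15% replicate 1 (0.0396) was left out, and with median scaling (-0.30, 0.015). Serpinf2 probes with means of 10.82 and 10.97 gave -0.24 and -0.22 and passed (adjusted p = 0.011 and 0.016), so the outcome depends on the probe.

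**Figure D3:**
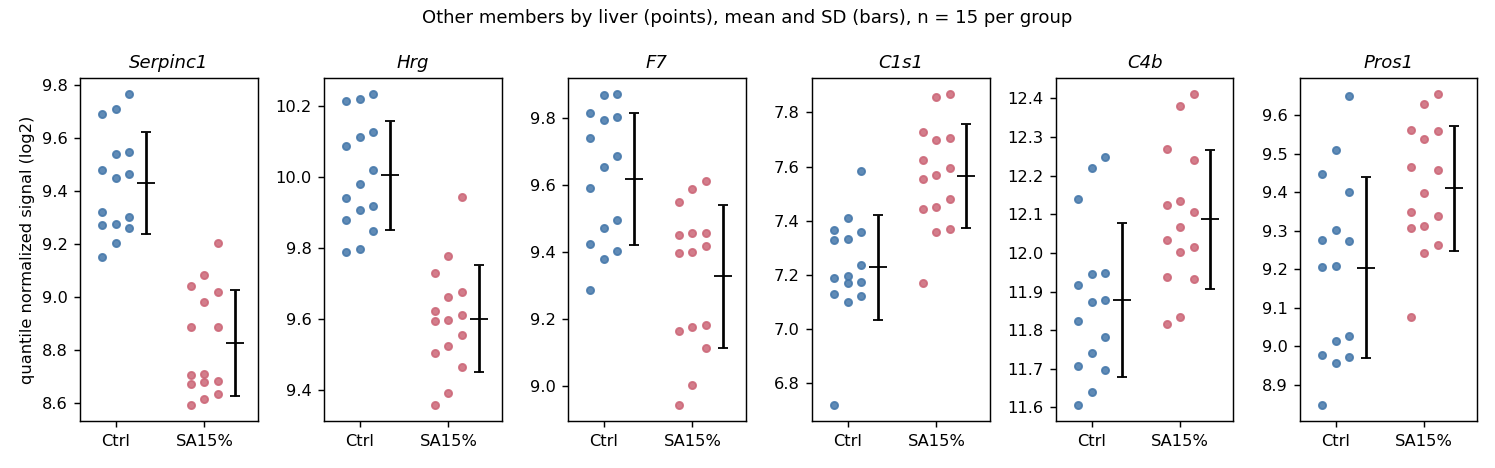
Quantile normalized log2 signal (y axis, scaled separately per panel) of 6 further genes in each liver (points), with the mean and SD (bars) of 15 livers per group. Serpinc1 and Hrg lie lower in SA15% with 14 of 15 livers under the lowest Ctrl liver, F7 is lower with more overlap, and C1s1, C4b and Pros1 are higher with overlapping groups.

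Very bright probes can lie near the upper end of the scanner's range, where differences are compressed. Fga and Kng1 were the members above a mean of log2 14. Kng1 codes for kininogen, the cofactor of the contact system and the source of bradykinin, and its brightest probe had raw signals between 76.9% and 96.1% of the highest signal on the same array. It ranked between the 4th and the 23rd brightest probe on Ctrl arrays and between the 4th and the 12th on SA15% arrays. Its SD was 0.09 in Ctrl and 0.04 in SA15% (n = 15 each), and its difference 0.05 (95% interval -0.02 to 0.11, adjusted p = 0.24). With median scaling the difference was 0.20 and passed (adjusted p = 0.0016). The raw signal of this probe had a median of 27750 in Ctrl and 34241 in SA15%. A dim probe of Kng1, with a mean of 7.09, gave -0.37. The difference of 0.41 between these 2 probes (SE 0.06) had a permutation p of 1e-05, the smallest that 100000 resamples can give (adjusted p = 9.5e-05), while a probe at 13.46 gave -0.08. The brightest Fga probe had 49.8% to 92.0% of the highest signal, and its decrease passed the test. Among the 66 detected probes above log2 14, 34.8% passed, against 48.9% of those between 12 and 14 and 43.4% of those between 8 and 12. The highest raw signal ran from 25523 to 35474 on Ctrl arrays and from 33438 to 44013 on SA15% arrays. A ceiling common to the arrays was therefore not established, and the part of the highest signal in these values was not tested.

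More generally, 13 of the 35 genes had more than 1 detected probe. Of the 19 further probes compared with the brightest probe of their gene, 13 moved the same way and 6 differed from it at an adjusted permutation p under 0.05. These were probes of F11, F12, Kng1, Serpinc1, Plg and Masp2. A Plg probe with a mean of 9.38 gave -0.30, against -0.08 at the brightest (adjusted p = 7.1e-04), and an F12 probe at 10.97 gave -0.15 against 0.04 (adjusted p = 9.5e-05). For F11 a dim probe at 6.39 gave 0.04, against -0.25 at the brightest (adjusted p = 0.012). At Masp2 a probe nearly as bright gave 0.03 against -0.08 (adjusted p = 0.0057).

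**Figure D4:**
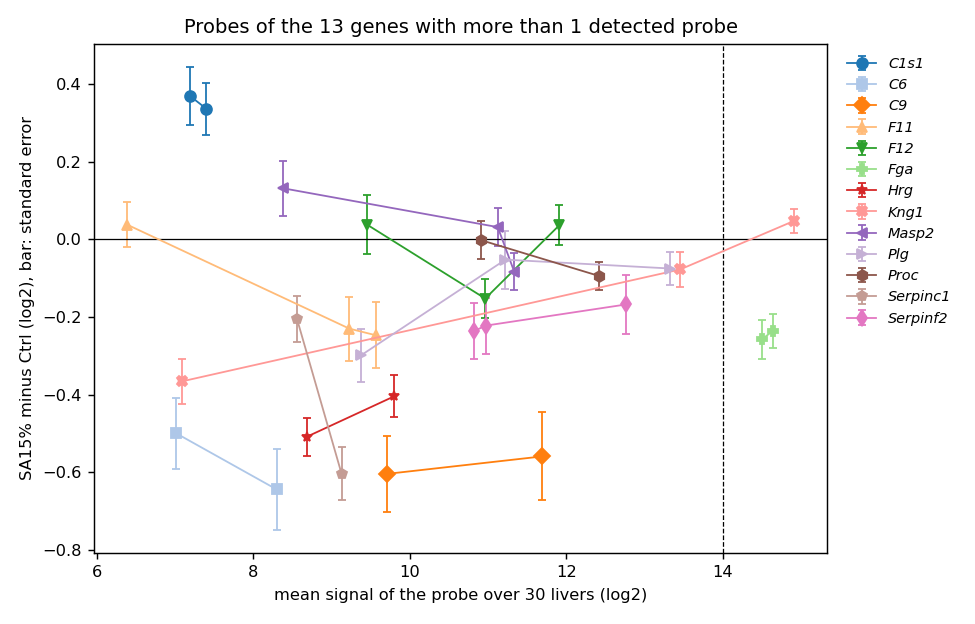
Difference SA15% minus Ctrl in log2 signal (y axis, bars show the standard error) against the probe's mean log2 signal over 30 livers (x axis), with lines joining the detected probes of each of 13 genes. The dashed line marks log2 14, above which lie the Fga probes and the brightest Kng1 probe, whose value of 0.05 stands beside -0.37 at its dimmest probe.

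Within each group, where the difference between diets cannot enter, 9 pairs of genes that share a complex, an enzyme reaction or an ancestor were correlated over the 15 livers (18 relations, two-sided permutation tests with 100000 resamples, 5 of them with an adjusted p of r under 0.05). In Ctrl, Mbl1 and Mbl2 moved together most closely of the pairs, with Pearson r = 0.90 and Spearman rho = 0.88 (adjusted permutation p = 5.4e-04 and 9.0e-04). In SA15% they had r = 0.54 and rho = 0.54 (0.101 and 0.097). Without the 2 livers farthest from the median of Mbl1, r was 0.85 and 0.37. Proc and Pros1 had r = 0.80 and rho = 0.76 in Ctrl (adjusted permutation p = 0.0037 and 0.0080, r = 0.80 without the 2 livers) and r = -0.04 and rho = -0.18 in SA15%, though r in SA15% was 0.72 with median scaling. C2 and Cfb had r = 0.70 and rho = 0.81 in Ctrl (adjusted permutation p = 0.013 and 0.0040, r = 0.59 without 2 livers), and r = 0.29 and rho = 0.34 in SA15%, where r was 0.59 with median scaling.

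C8a and C8b, the neighbours that changed by different amounts, were related in Ctrl (r = 0.63, rho = 0.65, adjusted permutation p = 0.043 and 0.039, r = 0.40 without 2 livers) and had r = 0.54 and rho = 0.54 in SA15% (0.101 and 0.097, r = 0.40). For C8a and C8g in SA15%, r was -0.69 and rho -0.68 (adjusted permutation p = 0.013 and 0.029, r = -0.62 without 2 livers), but r was -0.14 with median scaling, so that this relation depends on the scaling. The other relations had adjusted p of r above 0.05. Among them r of Klkb1 and Kng1 in Ctrl was 0.05, and -0.62 with median scaling. Whether r differed between the groups was not tested. The pairs with Fgb and C1ra could not be computed.

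**Figure D5:**
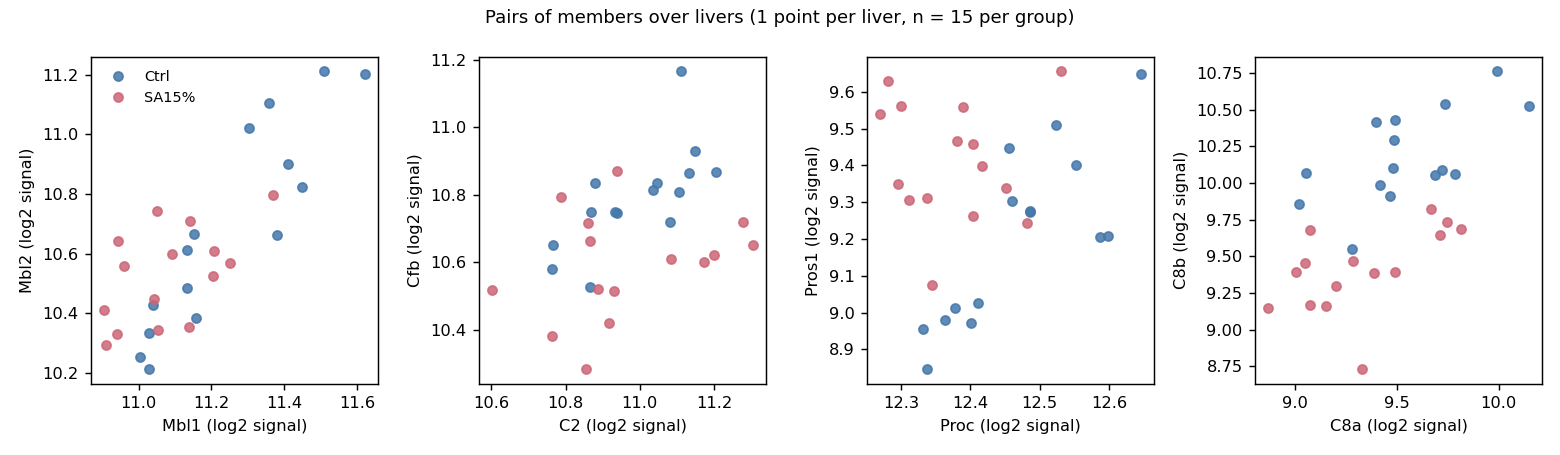
Log2 signal of 1 gene (y axis) against that of its partner (x axis) for 4 pairs, with a point for each of 15 Ctrl livers (blue) and 15 SA15% livers (red). In Ctrl the points of Mbl1 and Mbl2 follow a line (r = 0.90), as do those of Proc and Pros1 less closely (r = 0.80), and the C8b points of SA15% mostly lie below those of Ctrl at a like C8a level.

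Of 14 other detected genes of coagulation and fibrinolysis, 5 were higher, 1 was lower and 8 did not pass, with a median of 0.10, and this list was not tested against the members. Among all detected genes, 18% were higher and 19.5% lower. Lman1, the cargo receptor that carries factors V and VIII out of the endoplasmic reticulum, fell by 0.38 (adjusted p = 5.0e-07), and its cargo F8 rose by 0.19 (adjusted p = 0.0045). Ggcx, the carboxylase of the vitamin K dependent factors, rose by 0.17 (adjusted p = 0.027) and Hgfac, a protease related to factor XII, by 0.18 (adjusted p = 0.012). Of 13 other detected complement genes, 4 rose and 2 fell. Cfhr2, a factor H related protein, fell by 0.73 (SE 0.09, adjusted p = 1.2e-07) and Vtn (vitronectin, which blocks insertion of the terminal complex) by 0.25 (adjusted p = 2.5e-04), while Fcna (a ficolin of the lectin pathway) rose by 0.35 (adjusted p = 0.0013) and Cr1l (which limits complement on cell surfaces) by 0.25 (adjusted p = 0.0024). Hc, the mouse gene for C5, was not among the listed terminal genes and differed by -0.12 (adjusted p = 0.22).

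Acute phase proteins, which hepatocytes release in inflammation, mostly did not pass, with 1 of 18 detected genes higher (Apcs, serum amyloid P, 0.41, adjusted p = 0.0053), 2 lower (Crp, C-reactive protein, -0.20, and Cp, ceruloplasmin, -0.15, adjusted p = 0.0015 and 0.022) and 15 not passing. Among 22 other detected plasma proteins of hepatocytes, 6 fell and 4 rose, with a median near zero. Rbp4, which carries retinol, fell by 0.58 (adjusted p = 2.1e-09), Serpina1a, an alpha-1-antitrypsin, by 0.42 (adjusted p = 4.7e-08) and Apoh, which binds phospholipids, by 0.31 (adjusted p = 4.2e-06), while Serpina7, which carries thyroxine, rose by 0.96 (adjusted p = 7.0e-07). Beside 19.5% lower and 18% higher among all detected genes, 5 of 14 liver transcription regulators fell and 0 rose. These were Hnf4a (-0.29, adjusted p = 8.7e-05), Dbp (-0.59, adjusted p = 0.0089), Cebpa (-0.18, adjusted p = 0.043), Cebpb (-0.13, adjusted p = 0.044) and Nr5a2 (-0.23, adjusted p = 0.046). The part of these regulators in the decreases was not tested.

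The tissue label was borne by the hepatocyte genes Ttr and Apoa1 (both at a mean of 14.63), Asgr1 (13.20), Cps1 (12.98) and Hnf4a (11.00), while the probes of Alb and Tat were not detected. Between the groups Ttr rose by 0.24 (adjusted p = 1.3e-04), Cps1 fell by 0.27 (0.0026) and Hnf4a by the 0.29 given above, while Apoa1 (0.07) and Asgr1 (-0.07) did not pass. Of 11 detected Kupffer cell and macrophage genes, 7 rose and 0 fell, where 18% of all detected genes rose and 19.5% fell. Lgals3 (2.37, adjusted p = 1.3e-06) and Gpnmb (1.74, 6.4e-06) rose far more than Vsig4 (0.61, 0.0058) and Cd14 (0.22, 0.0044), and Marco (-0.09), Timd4 (0.08) and Ctss (-0.01) did not pass. The summed signal of the 11 genes ran from 1479 to 3816 in Ctrl (median 2154) and from 2682 to 6747 in SA15% (median 3970). Without Lgals3 and Gpnmb, a choice made after their values were seen, that of the other 9 ran from 1264 to 3380 (median 1924) and from 1748 to 4488 (median 2377). Of 10 endothelial genes 5 rose and 0 fell, among them Fcgr2b (0.35, adjusted p = 1.2e-04), Stab2 (0.20, 0.0041), Oit3 (0.22, 0.0044) and Clec4g (0.25, 0.0059), and the sums ran from 3382 to 4738 and from 3960 to 5653. Hba-a1, alpha globin of red cells, rose by 0.77 (adjusted p = 1.1e-06) and Slc4a1, their anion exchanger, by 0.23 (0.0029). Alas2, the other detected red cell gene, differed by -0.12 and did not pass (0.24). The 3 red cell genes together ran from 5850 to 12892 in Ctrl and from 11428 to 21313 in SA15%. That sum rests mostly on Hba-a1 (mean 13.56, against 9.57 for Alas2 and 6.42 for Slc4a1). None of 6 stellate cell and fibroblast genes, 2 platelet genes and 1 neutrophil gene passed, and the 4 cholangiocyte probes were not detected. C1s1, C4b and Pros1 are also made by cells other than hepatocytes, and the part of these markers in the rises and the decreases was not tested.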

How the data were processed

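Liver RNA of 15 Ctrl and 15 SA15% mice, 1 mouse per array, was measured on Illumina MouseRef-8 v1.1 BeadChips. Groups were taken from the agent label (control or sebacic acid). The treatment protocol field carries the same text, naming high-dose sebacic acid, on the control samples too and was not used. Scanning was done by the authors on a BeadArray Reader, and the submitters' processing notes name GenomeStudio 2009.2. The deposited intensity table holds, per array, the mean signal of 25697 probes without normalization or background correction, and beside each signal the authors deposited its detection p-value. Another deposited table holds quantile normalized intensities of the same arrays on a linear scale. Its column medians were 67.9 to 68.0, it ranked probes as the arrays' own signals did, and it served as an alternative. Mean raw intensity was 314 to 451 in Ctrl and 327 to 498 in SA15%, and within-group correlations of arrays ran from 0.983 to 0.996 with no duplicates.

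Intensities were quantile normalized and log2 transformed, and each probe whose detection p-value was below 0.05 on 15 or more of the 30 arrays was fitted with lmFit and eBayes (limma 3.58.1, R 4.3.3) without covariates, in place of the one-way ANOVA with a global error assessment of the methods. For the unadjusted thresholds all probes were tested. Gene symbols came from the platform annotation, updated to RefSeq (23978 probes with 1 symbol, 1719 with none), and the brightest detected probe stood for its gene. Permutation tests were run with code written for the purpose, and ranks came from scipy 1.17.1. The limma fit alone was checked on simulated data.

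The members, the other gene lists and the pairs were chosen with earlier results of these data known. All members are named. Those past an adjusted p of 0.05 with at least a 1.2-fold change are given by their lowest, median and highest liver, and of each other list up to 4 genes with the smallest p-values among those that passed. Hc and Nr5a2 were named in addition, after their values were seen. In the main fit, replicate numbers were handled as names only. Alternatives were neqc background correction, median scaling, the other table, filters, the mean over probes, other variance estimates, array weights, a replicate block and leaving out each liver. A BeadChip block could not be fitted because the columns do not name the chip. The SA1.5% group was not analysed here. The replicates are separate mice.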

Additional observations from a re-analysis of the deposited data

How the results depend on the processing

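Median scaling changed the most. It gave 27 genes lower instead of 17, with 3 of fibrinolysis (1 with quantile normalization), 11 of complement lower (7) and 1 of complement higher (2), and a median difference of -0.27 instead of -0.14. The median over all detected probes moved from -0.01 to -0.07. Fibrinolysis genes lower were 3 with the mean over a gene's probes, 2 with pooled error and 2 with the replicate block. Kng1 changed sign with the mean over its probes (-0.13, adjusted p = 9.8e-04), and passed as higher with median scaling (0.20, adjusted p = 0.0016). F11 no longer passed with the mean over probes (adjusted p = 0.075). Proc no longer passed with neqc (0.054), the mean over probes (0.309), pooled error (0.106) or the block (0.066). C6, C8b, C8g, C9, Serpinc1, Hrg, F5, F7, F13b, Fga, Klkb1, Cfb, Masp1 and C1s1 passed under all 11 alternatives and in each leave-one-out fit.

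Leaving out 1 liver at a time gave 3 to 4 genes higher and 15 to 20 lower, 8 to 10 of coagulation, 1 to 2 of fibrinolysis and 6 to 8 of complement lower, 2 to 3 of complement higher, and medians from -0.16 to -0.12. The count past 1.3-fold stayed at 5. Of genes that had not passed, some passed without certain livers. These were C8a without Ctrl replicate 2 or 14 (adjusted p = 0.0454 and 0.0499), F9 without Ctrl replicate 11 (0.0353), Cfi in 7 of the fits (Ctrl replicates 1, 4, 7 and 8, SA15% replicates 6, 8 and 9; 0.0160 to 0.0485) and F10 in 8 (Ctrl 5, 12, 13 and 14, SA15% 1, 2, 3 and 10; 0.0187 to 0.0490).

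Same-numbered livers of the 2 groups had correlated deviations from -0.07 to 0.39 (median 0.16, against -0.02 for other numbers), with 10 of 15 above 0.1 and 4 of 15 best matched by their own number. No label says that a number marks a shared litter, day or batch, so pairing was not assumed. The 5 pairs at or below 0.1 do not show that the numbers carry nothing, since same numbers correlated more at the median. An effect of the order of the numbers was not tested. With the replicate block, 2129 probes were higher and 2330 lower (1942 and 2199 without it). F2 (adjusted p = 0.058) no longer passed, while C8a (0.024), Cfi (0.045), F10 (0.032) and Serpinf2 (0.016) did. The number of arrays limits the precision.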
